A study of Mus musculus with 15 samples.

Results

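The genes described here are those whose symbol in the annotation of the Affymetrix mouse genome array starts with Kif, Cenp, Cdc, Bub, Aurk, Ncap or Plk, apart from the Cdc42 genes. The choice was made by name and not by measured values, though with earlier results of these data known. It gave 111 genes, the members, of 18193 on the array with a probe set annotated to 1 gene, and the brightest probe set of a gene, by its mean on the 15 arrays, stood for that gene. Of the 111 genes, 101 passed the filter on low values, which asked that 3 or more arrays reach a log2 value of 3.864, the median over the whole table. The label "mitotic kinesin, centromere and checkpoint genes" fits only some of them, since the prefixes also take in kinesins that carry cargo along microtubules in cells that are not dividing, and unrelated genes such as Cdcp1.

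Expression was measured in 5 mouse embryonic stem (ES) cell lines, with 3 arrays per line. NmB6D2 was derived from embryos of C57BL6 females mated with DBA2 males, and R1, a line obtained by purchase, goes back to a cross of the substrains 129S1/SvImJ and 129X1/SvJ. The other 3 lines were parthenogenetic: oocytes were activated with no sperm involved, and their genome is of maternal origin alone. For OpB6D2 the oocytes had ovulated naturally in B6D2F1 females (C57BL6 mother, DBA2 father). FpB6D2 came from oocytes grown in cultured preantral follicles of prepubertal B6D2F1 females, and FpB6CBA from such oocytes of B6CBAF1 females (C57BL6 mother, CBA/Ca father). No group was treated. Each line goes back to 1 derivation, so strain, oocyte source and clone cannot be told apart where lines differ, and the p-values measure only the spread between arrays of 1 line, since the labels do not tell whether these were separate cultures.

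Kinetochores assemble on centromeres through the Cenp proteins and hold chromosomes to the spindle. Until every kinetochore is attached, the Bub proteins keep Cdc20 from activating the anaphase-promoting complex, while Aurora and polo-like kinases, Cdc25 phosphatases, condensins and mitotic kinesins drive entry into mitosis, chromosome compaction and spindle movement. ES cells divide fast with short gap phases, and many of these genes are transcribed in late cell cycle through promoters that carry a cell cycle genes homology region (CHR) and CCAAT boxes, the binding sequence of NF-Y.

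Promoter sequences from RefSeq (build GRCm38.p6) are shown because short motifs that the choice by name did not use were more frequent in some of the mitotic roles than in all genes. A window ran from 250 bases before to 50 bases after an annotated gene start, and 99 of the 111 members had one. The stretches below hold bases 181 to 300 of the window, counted from 1 at its 5′ end, so the gene start follows base 250. Capitals mark TTTGAA, the CHR letters, and CCAAT, which reads ATTGG where it lies on the other strand. Plk1, the only 1 of 5 polo-like kinases with TTTGAA in its window, is shown with Cdc20, Aurka, Kif23 and Kif4, members of the checkpoint, Aurora and mitotic kinesin groups that have it, and Kif5c, a transport kinesin, has neither motif in this stretch.
Plk1 (chr7:122159365-122159484, plus strand): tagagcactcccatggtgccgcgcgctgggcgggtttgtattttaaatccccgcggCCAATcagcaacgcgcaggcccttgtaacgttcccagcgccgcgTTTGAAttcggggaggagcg
Cdc20 (chr4:118437294-118437413, minus strand): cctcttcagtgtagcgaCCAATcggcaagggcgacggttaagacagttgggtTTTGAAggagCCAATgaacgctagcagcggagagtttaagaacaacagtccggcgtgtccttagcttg
Aurka (chr2:172370521-172370640, minus strand): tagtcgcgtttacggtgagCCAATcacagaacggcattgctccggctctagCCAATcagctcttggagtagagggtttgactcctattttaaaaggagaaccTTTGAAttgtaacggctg
Kif23 (chr9:61946750-61946869, minus strand): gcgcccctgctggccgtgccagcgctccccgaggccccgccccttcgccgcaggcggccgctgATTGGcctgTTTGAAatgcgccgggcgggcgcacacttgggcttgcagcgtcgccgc
Kif4 (chrX:100625995-100626114, plus strand): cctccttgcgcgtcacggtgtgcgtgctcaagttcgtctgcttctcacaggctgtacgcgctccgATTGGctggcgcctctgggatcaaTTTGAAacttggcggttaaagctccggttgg
Kif5c (chr2:49619216-49619335, plus strand): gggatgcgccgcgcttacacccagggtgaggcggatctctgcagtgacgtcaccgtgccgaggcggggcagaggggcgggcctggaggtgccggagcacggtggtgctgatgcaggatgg

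TTTGAA, searched on both strands, was found in a window of 37 of the 99 members (37.4%), against 20.2% of all 27025 genes with a window. Of the mitotic kinesins, 11 of 13 had it (84.6%), as had 5 of 7 checkpoint and Aurora genes (71.4%) and 4 of 6 condensins (66.7%). So had 2 of 3 replication origin genes (66.7%) and 3 of 5 Cdca genes (60.0%). It was less frequent in the remaining roles: 5 of 18 centromere genes (27.8%), 1 of 4 Cdc25 and Cdc14 genes (25.0%) and 1 of 5 polo-like kinases. The motif was found in 3 of 23 genes in the group of other kinesins, 2 of 12 other members and 0 of 3 subunits of the anaphase-promoting complex. Kif2a and Kif2b, of the same family as the mitotic kinesin Kif2c, were counted with the other kinesins and had no match. That group also includes Kifap3 and Kifbp, which bind kinesins and are not kinesins themselves. CCAAT, also on both strands and with no overlap of letters required or barred, was found for 55 of the 99 members (55.6%) and 41.1% of all genes. All 7 checkpoint and Aurora genes with a window had it, as had 13 of 18 centromere genes (72.2%), while 2 of 6 condensins (33.3%) and 2 of 5 polo-like kinases did. In the mitotic kinesins, 10 of 14 matches to TTTGAA lay within bases 201 to 300 of the window. A match describes letters in a window and was not tested as a binding site.

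**Figure D1:**
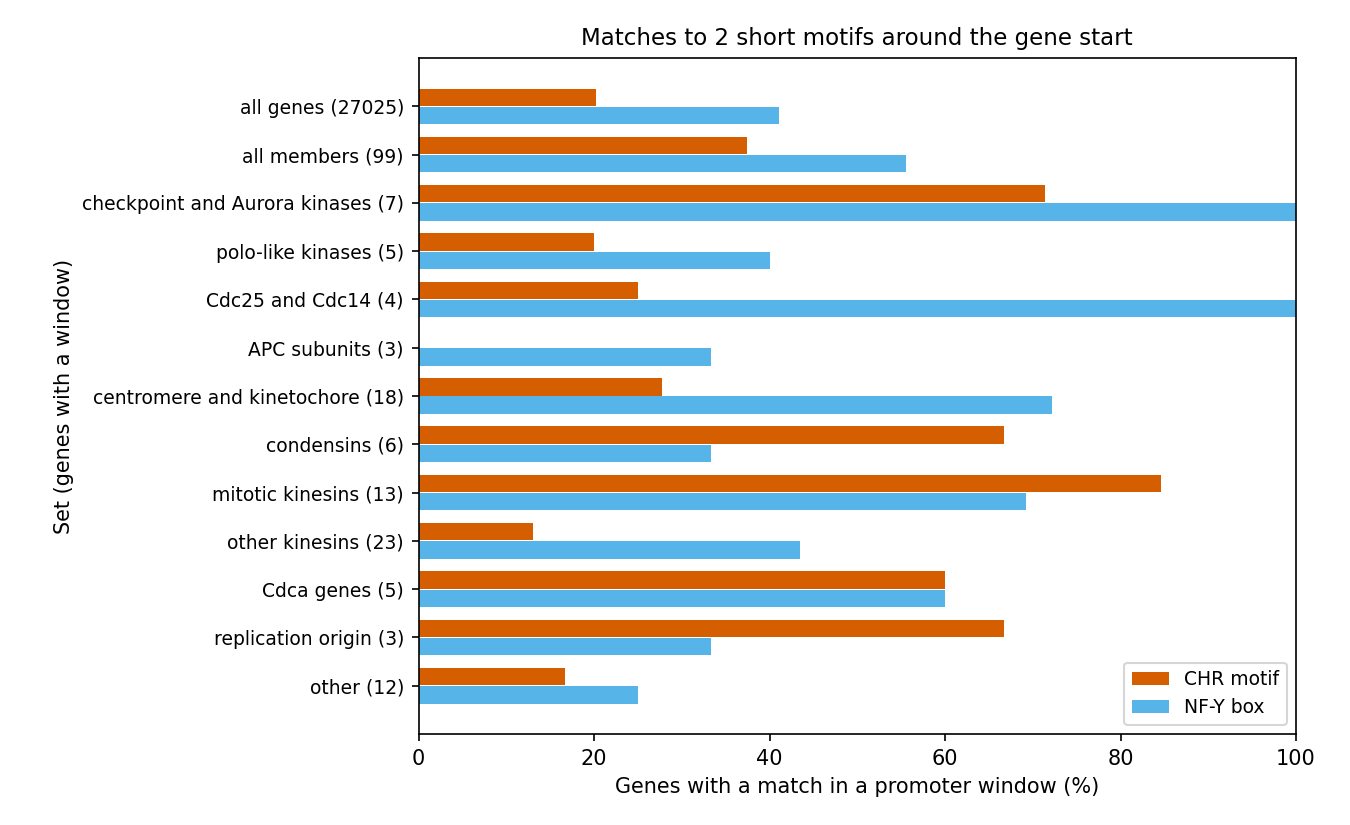
Share of genes (%, x axis) with a match to TTTGAA (CHR motif, orange) or CCAAT (NF-Y box, blue) in a promoter window, for all genes, all members and each role (y axis, genes with a window in brackets). The CHR bars of mitotic kinesins (84.6%), checkpoint genes (71.4%), condensins (66.7%), replication origin genes (66.7%) and Cdca genes (60.0%) reach past that of all genes (20.2%). Those of centromere genes (27.8%) and polo-like kinases lie near it, and the bar of the other kinesins is shorter.

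Across probe sets, which are not independent replicates, Pearson's r was 0.993 to 0.998 within lines and 0.91 to 0.978 between them. The 8 ES cell markers were well expressed in every line, with a list mean between 10.84 and 11.36 on the 15 arrays. Fibroblast markers (19 genes on the array, as feeder cells could carry) had a list mean of 5.99 to 6.11 in NmB6D2, 6.38 to 6.95 in the parthenogenetic lines and 6.97 to 7.06 in R1, with Lum and Fap below the filter value in all 5 lines. Primitive endoderm markers (6 genes) were highest in FpB6CBA, at 6.33 to 6.49 against 4.73 to 5.79 elsewhere. Trophectoderm markers (7 genes) were highest in NmB6D2, at 8.19 to 8.28, and lowest in OpB6D2, at 5.94 to 6.16. Mesoderm markers (4 genes) were at 6.61 to 6.73 in R1 and 4.29 to 4.96 elsewhere. Hybridisation controls read 9.71 to 10.41 in both lines from cultured follicles and 9.36 to 9.73 in the other lines, and the actin 3′ minus 5′ difference was 0.62 to 0.76 against 0.48 to 0.55. The part of these differences in the results below was not tested.

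Across the 5 lines, most members differed, but seldom by much. By the moderated F test of limma with Benjamini-Hochberg adjustment over 12813 genes, 25 of the 101 members (24.8%) differed with an adjusted p under 0.05 and at least 2-fold between the highest and the lowest line, which is what called means below, where 32.9% of all tested genes did. Without a minimum size, 95 of the 101 passed (94.1%), against a background of 87.0%. The median range between the highest and the lowest line was 0.73 log2 units for the members and 0.74 for all genes tested. R1 was the lowest line for 41 members (40.6%, against 31.1% of all tested genes), and NmB6D2 (27 members, 26.7% against 14.7%) and FpB6D2 (28 members, 27.7% against 22.7%) were most often the highest. The 25 genes were Aurka, Aurkc, Bub1, Plk3, Cdc14b, Cdc25a, Cdc25b, Cdc25c, Cdc27, Cenpf, Cenpi, Cenpm, Cenpu, Ncapg, Kif4, Kif1b, Kif1c, Kif5c, Kif16b, Kif21a, Kif21b, Kif26a, Cdca2, Cdcp1 and Cenpj. Just above the 2-fold minimum lay Cdca2 (range 1.03) and Kif4 (1.03), and just under it Kif23 (0.99) and Aurkb, whose range rounds to 1.00.

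**Figure D2:**
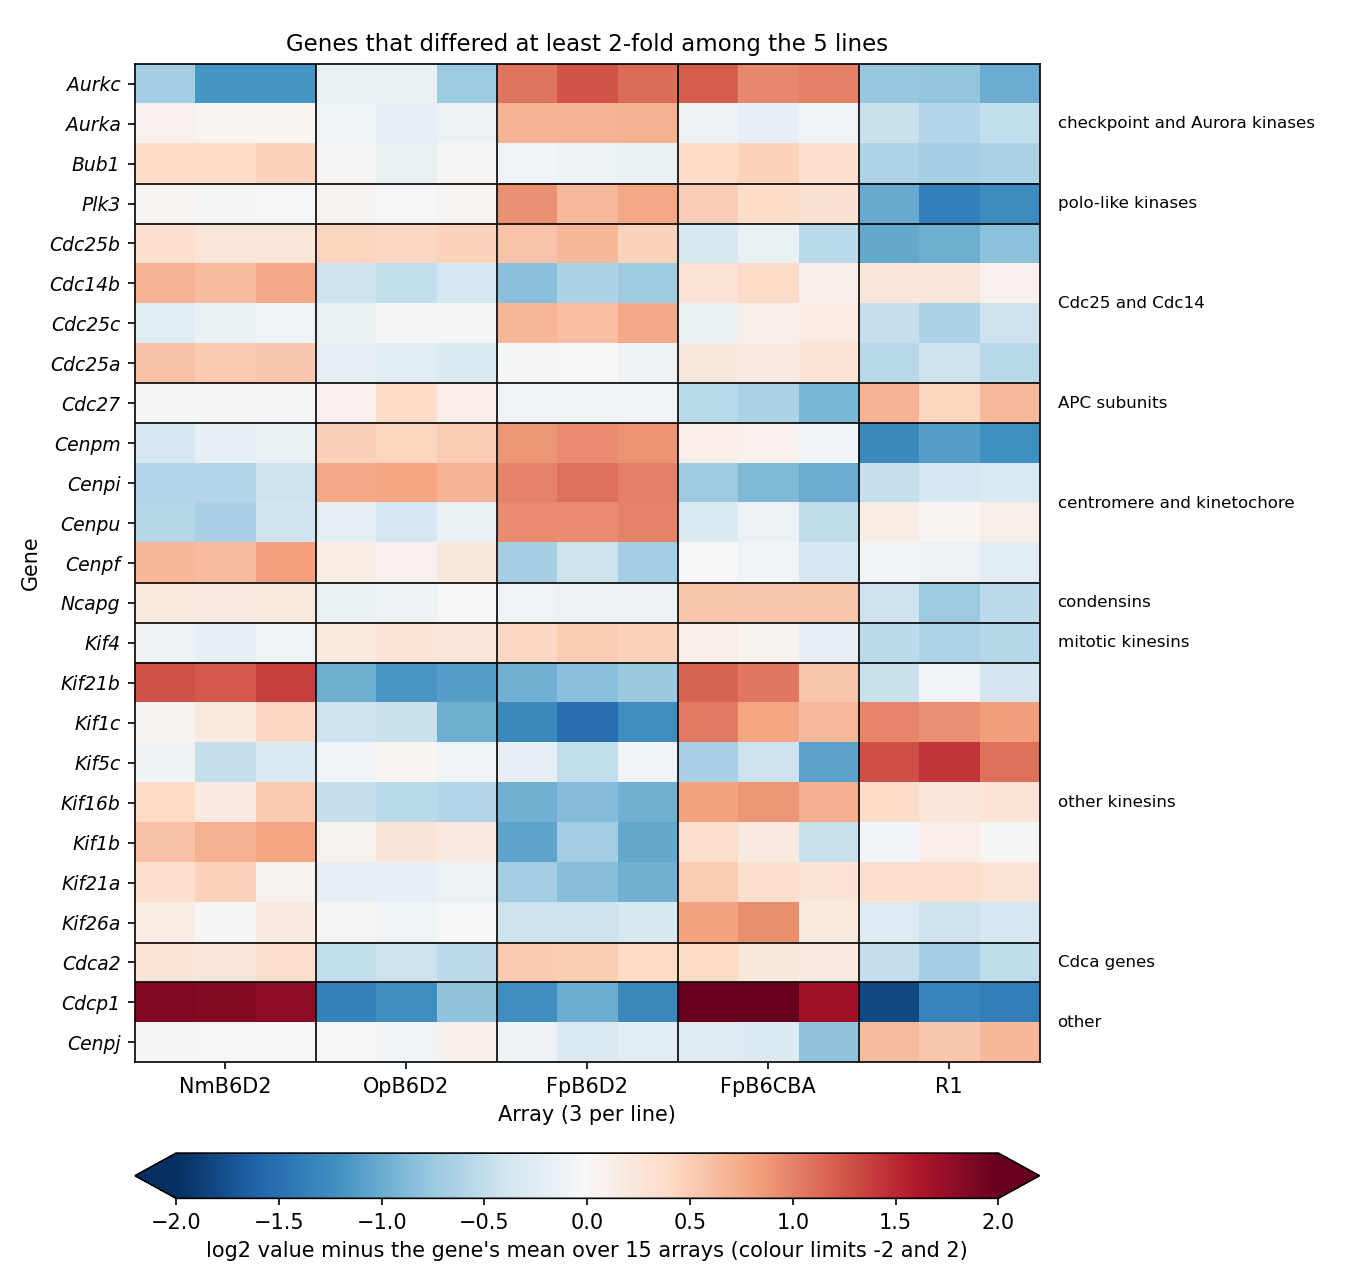
The 25 members that differed at least 2-fold among the 5 lines (rows, grouped by role) on the 15 arrays (columns, 3 per line), coloured by the log2 value minus the gene's mean over all arrays, red above and blue below. Cdcp1 is red in NmB6D2 and FpB6CBA and blue in the other lines, and Cenpm, Plk3 and Cdc25b are also blue in R1.

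The spindle checkpoint genes were lowest in R1. Bub1, a kinase that marks centromeres and recruits the checkpoint, read 10.71, 10.70 and 10.79 in NmB6D2, 10.71, 10.79 and 10.67 in FpB6CBA, 10.36, 10.19 and 10.30 in OpB6D2, 10.27, 10.23 and 10.21 in FpB6D2, and 9.72, 9.67 and 9.71 in R1 (log2 values, as throughout). All 3 R1 arrays lay below every other array, and NmB6D2 overlapped FpB6CBA while OpB6D2 overlapped FpB6D2. The log2 difference of R1 from NmB6D2 was -1.04 ± 0.06 (SE of the fit, n = 3 arrays per line), 2.05-fold lower, with an adjusted p of 1.4e-09. In a second probe set of Bub1, FpB6CBA was highest (mean 5.88), NmB6D2 had a mean of 5.39, and R1 was again lowest, below the filter value.

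Bub1b, whose product BubR1 is part of the complex that holds back Cdc20, read 9.35, 9.24 and 9.33 in R1 and 9.82 to 10.04 on the 12 other arrays. R1 did not overlap any other line, and its mean was 0.71 ± 0.05 below NmB6D2 on the log2 scale, 1.63-fold (adjusted p = 2.3e-08). Cdc20, the activator of the anaphase-promoting complex and the target of the checkpoint, read 12.03, 11.99 and 11.98 in NmB6D2, 11.97, 11.93 and 11.96 in FpB6D2, 11.65, 11.59 and 11.68 in OpB6D2, 11.72, 11.71 and 11.64 in FpB6CBA, and 11.41, 11.19 and 11.24 in R1. Again R1 lay below all other arrays, by 1.64-fold from NmB6D2 (log2 difference -0.72 ± 0.06, adjusted p = 8.4e-08). In the other 2 probe sets of Cdc20, NmB6D2 and R1 differed by 0.73 and 0.74. Bub3, the partner that carries Bub1 and Bub1b to kinetochores, varied least of the Bub genes, with line means of 10.78 in NmB6D2, 10.79 in FpB6D2, 10.49 in OpB6D2, 10.50 in FpB6CBA and 10.45 in R1. Its R1 arrays overlapped FpB6CBA, from which R1 differed by -0.04 ± 0.05 (adjusted p = 0.47).

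Aurka and Aurkb were both highest in FpB6D2 and lowest in R1, and Aurkc had another order of lines. Aurka, which matures spindle poles, was highest in FpB6D2 at 10.77, 10.79 and 10.80, followed by NmB6D2 at 10.17, 10.15 and 10.13. OpB6D2 (10.02, 9.91 and 9.98) and FpB6CBA (mean 9.97, SD 0.03) overlapped, and R1 was lowest at 9.65, 9.51 and 9.60. The range of 1.20 corresponds to 2.30-fold (adjusted p = 6.1e-10 among the 5 lines), and with the mean of all probe sets of the gene it was 0.63, below the 2-fold minimum. The second Aurka probe set did not pass the filter, and FpB6D2 and R1 differed there by 0.07. Aurkb, the kinase of the chromosomal passenger complex, had the same highest and lowest lines: 9.13, 9.09 and 9.13 in FpB6D2 and 8.12, 8.07 and 8.16 in R1, with line means of 8.93 in NmB6D2, 8.83 in FpB6CBA and 8.70 in OpB6D2. Its range fell short of 2-fold by less than the rounding, and it passed the minimum without FpB6D2 replicate 2 (1.02), R1 replicate 3 (1.00) or R1 replicate 5 (1.02).

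Aurkc, the Aurora kinase known from meiosis in germ cells, set both lines from cultured follicles apart. It read 6.27, 6.45 and 6.31 in FpB6D2 and 6.41, 6.16 and 6.20 in FpB6CBA, against 4.52, 4.03 and 4.02 in NmB6D2, 5.05, 5.05 and 4.47 in OpB6D2, and 4.44, 4.42 and 4.20 in R1. FpB6D2 and FpB6CBA overlapped each other and did not overlap the other 3 lines. Aurkc was 4.45-fold higher in FpB6D2 than in NmB6D2 (log2 difference 2.15 ± 0.16, adjusted p = 4.1e-08) and 4.19-fold higher in FpB6CBA than in NmB6D2 (2.07 ± 0.16, adjusted p = 1.8e-07). Against OpB6D2, the parthenogenetic line from ovulated oocytes, FpB6D2 was 2.80-fold higher (1.48 ± 0.16, adjusted p = 4.2e-06). OpB6D2 was 1.59-fold higher than NmB6D2 (0.67 ± 0.16, adjusted p = 0.0029), with 1 OpB6D2 array below the highest NmB6D2 array. The actin 3′ minus 5′ difference was also higher in both follicle lines. Hybridisation controls were higher in FpB6D2 (10.02 to 10.11), while those of FpB6CBA (9.71 to 10.41) overlapped NmB6D2 (9.46 to 9.73). The part of these controls was not tested.

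Of the 8 checkpoint, passenger and Aurora genes, 3 were called among the 5 lines (near the background of 32.9%) and 6 were lowest in R1, as were 31.1% of all tested genes. Between R1 and NmB6D2, 6 of the 8 were lower at an adjusted p under 0.05 without a minimum size and 0 were higher, where 31.9% of all tested genes were lower and 31.0% higher. The median log2 difference of the 8 was -0.64, beside -0.04 for all genes tested. Cdca8, the passenger subunit Borealin, and Aurkc made up the remainder. Fibroblast markers moved with this comparison, 12 of 17 tested being higher in R1 and 1 lower, as did the mesoderm markers, and the list means given above stand apart between R1 and NmB6D2. Their part was not tested. In cultures measured in bulk, fewer cells in mitosis and less transcript per cell cannot be told apart.

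**Figure D3:**
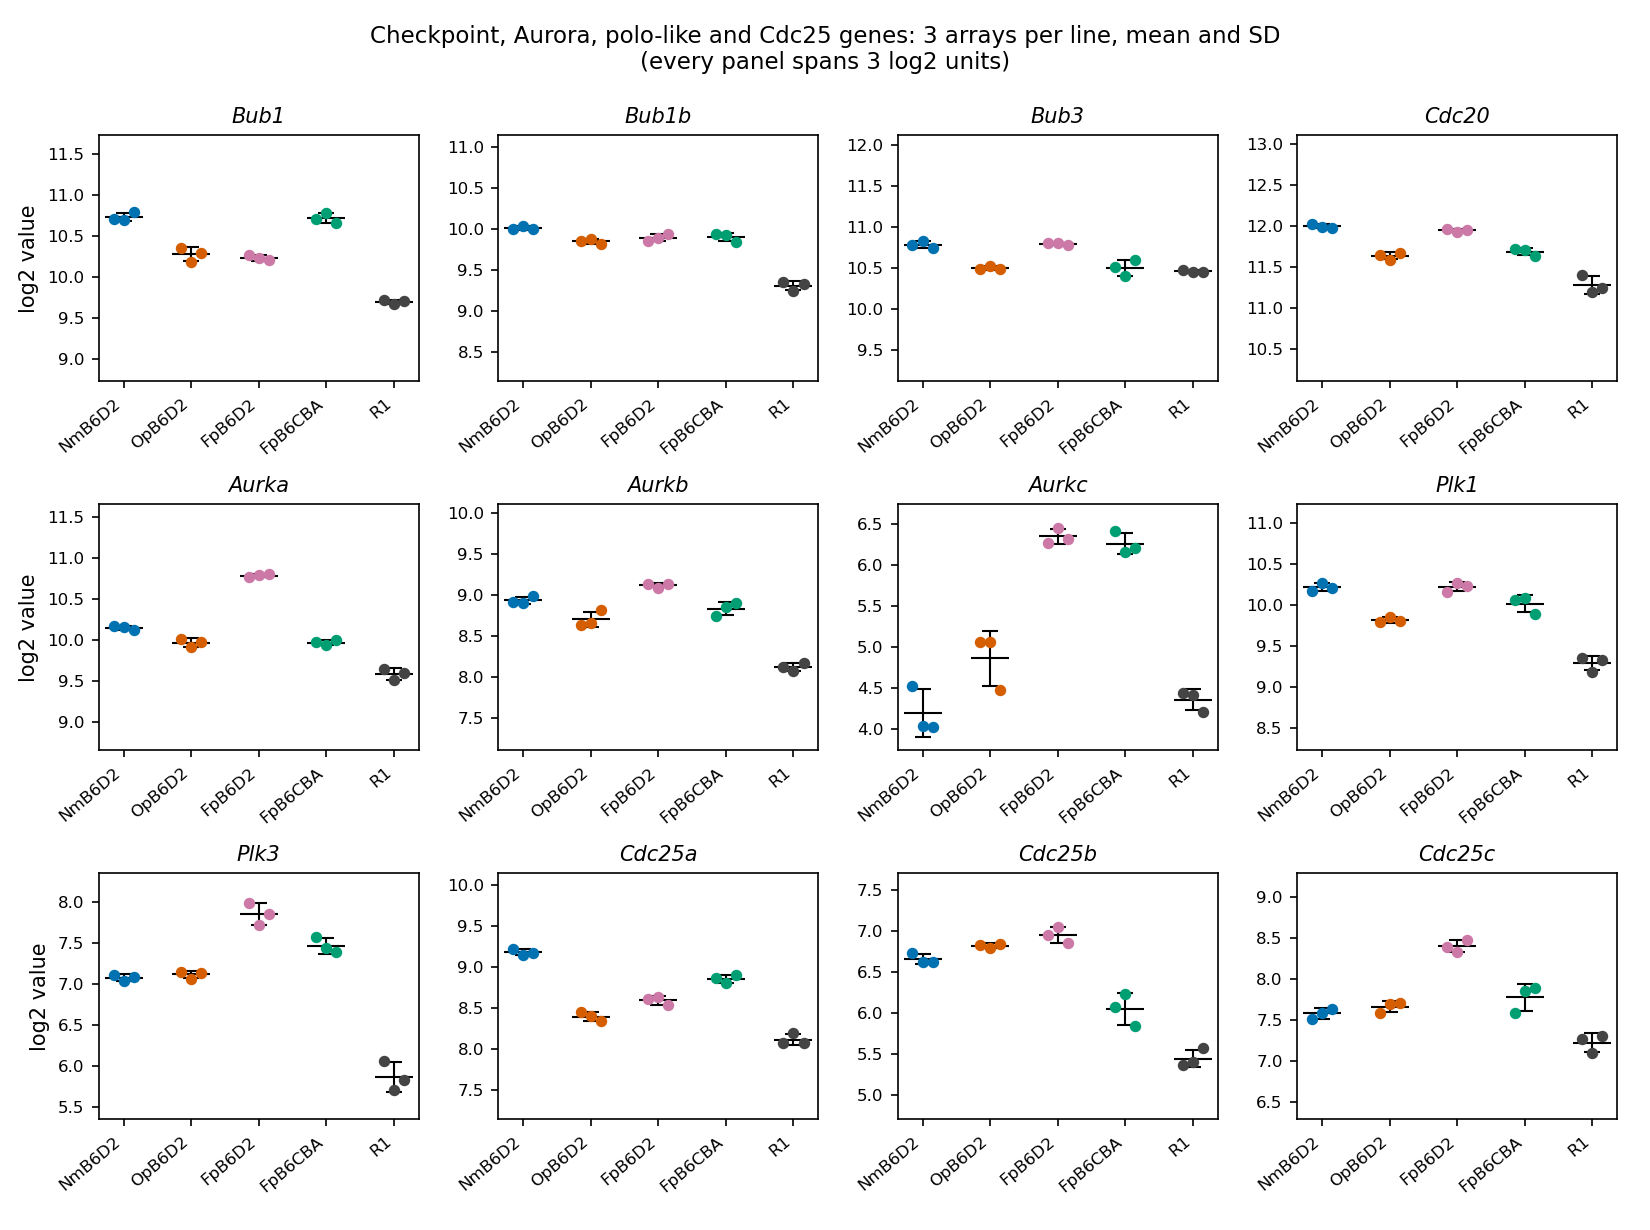
Log2 values (y axis, every panel spanning 3 units) of 12 checkpoint, Aurora, polo-like and Cdc25 genes in the 5 lines (x axis), with a point per array and bars for the mean and SD of 3 arrays. R1 is lowest for Bub1, Bub1b, Cdc20, Aurka, Aurkb, Plk1, Plk3, Cdc25a, Cdc25b and Cdc25c, and Aurkc is high in FpB6D2 and FpB6CBA.

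Among the polo-like kinases, Plk1 and Plk3 were lowest in R1 and Plk2 and Plk4 were highest there. Plk1, which drives mitotic entry and spindle assembly, read 10.18, 10.27 and 10.20 in NmB6D2, 10.16, 10.27 and 10.24 in FpB6D2, 10.06, 10.09 and 9.90 in FpB6CBA, 9.79, 9.86 and 9.80 in OpB6D2, and 9.35, 9.19 and 9.33 in R1. NmB6D2 and FpB6D2 overlapped (difference of FpB6D2 0.01 ± 0.06, adjusted p = 0.93), and R1 lay below all other arrays, 1.90-fold under NmB6D2 (-0.93 ± 0.06, adjusted p = 1.7e-08). Plk3, a polo-like kinase linked to stress responses, spread further: 7.99, 7.72 and 7.85 in FpB6D2, 7.57, 7.44 and 7.38 in FpB6CBA, 7.11, 7.03 and 7.08 in NmB6D2, 7.15, 7.06 and 7.13 in OpB6D2, and 6.06, 5.71 and 5.82 in R1. NmB6D2 and OpB6D2 overlapped, the other lines did not overlap any line, and the range was 3.97-fold (adjusted p = 8e-10). From NmB6D2, R1 differed in Plk3 by -1.21 ± 0.09, 2.31-fold lower (adjusted p = 2.9e-08).

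Plk2, an early response gene of the family, read 8.62, 8.57 and 8.65 in R1 and 8.56, 8.62 and 8.52 in OpB6D2, which overlapped, and 8.01 to 8.19 on the 9 arrays of the other lines. R1 was 1.46-fold above NmB6D2 (0.55 ± 0.05, adjusted p = 4.3e-07). Plk4, which starts centriole duplication, was lowest in FpB6CBA at 7.97, 7.92 and 8.10 and had means of 8.24 in FpB6D2, 8.60 in OpB6D2, 8.61 in NmB6D2 and 8.69 in R1. NmB6D2 and R1 differed in Plk4 by 0.09 ± 0.07 (adjusted p = 0.29). Its other probe sets differed by 0.14 and -0.36 between R1 and FpB6CBA, so the probe sets disagree in direction. Plk5, a divergent member, had line means between 4.92 in OpB6D2 and 5.38 in NmB6D2.

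All 3 Cdc25 phosphatases, which remove inhibitory phosphates from cyclin-dependent kinases, were called among the 5 lines and were lowest in R1. Of all tested genes, 32.9% were called among the 5 lines and 31.1% were lowest in R1. Cdc25a, the one acting from late G1 on, read 9.21, 9.15 and 9.17 in NmB6D2, 8.86, 8.80 and 8.90 in FpB6CBA, 8.61, 8.63 and 8.53 in FpB6D2, 8.44, 8.39 and 8.34 in OpB6D2, and 8.06, 8.19 and 8.07 in R1. No lines overlapped, and R1 was 2.09-fold below NmB6D2 (-1.07 ± 0.06, adjusted p = 8.9e-10). In a second Cdc25a probe set these lines differed by 0.16, and with the mean of all its probe sets the difference of R1 from NmB6D2 was -0.50 and no longer called.

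Cdc25b, an activator at mitotic entry, read 6.94, 7.04 and 6.84 in FpB6D2, 6.83, 6.79 and 6.84 in OpB6D2, 6.72, 6.62 and 6.62 in NmB6D2, 6.06, 6.23 and 5.83 in FpB6CBA, and 5.36, 5.40 and 5.57 in R1. FpB6CBA and R1 stood below the other lines and did not overlap each other. R1 was 2.32-fold below NmB6D2 (-1.21 ± 0.09, adjusted p = 3.3e-08), and FpB6CBA was 1.87-fold below FpB6D2 (-0.90 ± 0.09, adjusted p = 8.0e-07). Cdc25c, which acts at the same step, was highest in FpB6D2 at 8.39, 8.32 and 8.47 and lowest in R1 at 7.26, 7.09 and 7.30. Its values in NmB6D2 (7.51, 7.58 and 7.63), OpB6D2 (7.58, 7.69 and 7.70) and FpB6CBA (7.58, 7.85 and 7.89) overlapped, and the range was 2.26-fold (adjusted p = 1.6e-07).

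Cdc14b, a phosphatase of the family that reverses mitotic phosphorylation, followed another order, with 8.30, 8.23 and 8.36 in NmB6D2, 7.90, 7.99 and 7.72 in FpB6CBA, 7.85, 7.84 and 7.68 in R1, 7.20, 7.11 and 7.26 in OpB6D2, and 6.78, 6.97 and 6.89 in FpB6D2. NmB6D2 lay above all other arrays and both parthenogenetic B6D2 lines below all others. OpB6D2 was 2.15-fold below NmB6D2 (-1.11 ± 0.08, adjusted p = 6.1e-08) and FpB6D2 2.67-fold (-1.42 ± 0.08, adjusted p = 2.7e-09). In a second probe set NmB6D2 and FpB6D2 differed by 1.26. All 4 tested Cdc25 and Cdc14 genes were lower in R1 than in NmB6D2, as were 31.9% of all tested genes, with a median of -0.78 (all genes -0.04).

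Of 4 subunits of the anaphase-promoting complex tested, Cdc16 and Cdc27 were higher in R1 than in NmB6D2, where 31.0% of all tested genes were higher and 31.9% lower. Cdc23 (-0.09, adjusted p = 0.28) and Cdc26 (0.08, adjusted p = 0.22) did not pass the test. Cdc27, one of its scaffold subunits, was highest in R1 at 8.62, 8.36 and 8.59 and lowest in FpB6CBA at 7.40, 7.30 and 7.03, with 8.03, 8.31 and 8.07 in OpB6D2, 7.91, 7.90 and 7.91 in NmB6D2 and 7.87, 7.84 and 7.89 in FpB6D2. NmB6D2 and FpB6D2 did not overlap by a narrow margin and differed by -0.04 ± 0.10 (adjusted p = 0.77); R1 and FpB6CBA stood apart from every other line. The range was 2.43-fold (adjusted p = 3.5e-07), and the other 3 Cdc27 probe sets ran in the same direction, with differences of 0.79, 0.83 and 2.04 between R1 and FpB6CBA. Cdc16, another subunit, read 9.80, 9.83 and 9.80 in R1 and 9.10, 9.10 and 9.18 in NmB6D2, a 1.61-fold difference (0.69 ± 0.06, adjusted p = 7.4e-08).

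FpB6D2 was the highest line for 12 of the 18 centromere and kinetochore genes and for 22.7% of all tested genes. Against NmB6D2, 12 of the 18 were higher in FpB6D2 and 4 lower at an adjusted p under 0.05, against 31.3% and 29.0% of all tested genes, and 3 were at least 2-fold higher (background 5.22%). The median log2 difference of the 18 was 0.36, beside 0.02 for all genes tested. Cenpm, a subunit of the network of proteins that stays on the centromere through the cell cycle, read 9.08, 9.14 and 9.08 in FpB6D2, 8.66, 8.62 and 8.70 in OpB6D2, 8.32, 8.28 and 8.13 in FpB6CBA, 7.86, 8.03 and 8.04 in NmB6D2, and 6.89, 7.08 and 6.96 in R1. No lines overlapped, and the range was 4.35-fold (adjusted p = 3.2e-11). FpB6D2 was 2.18-fold above NmB6D2 in Cenpm (1.13 ± 0.07, adjusted p = 6.3e-09), and R1 was 1.99-fold below it (-0.996 ± 0.07, adjusted p = 1.7e-08), just short of the 2-fold minimum.

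Cenpu, another subunit of that network, read 7.90, 7.90 and 7.95 in FpB6D2, above 7.09, 6.99 and 7.07 in R1, 6.77, 6.60 and 6.83 in OpB6D2, 6.67, 6.83 and 6.45 in FpB6CBA, and 6.38, 6.30 and 6.56 in NmB6D2. FpB6D2 and R1 stood apart, and FpB6CBA overlapped OpB6D2 and NmB6D2. FpB6D2 was 2.84-fold above NmB6D2 (1.504 ± 0.09, adjusted p = 7.3e-09) and 2.27-fold above OpB6D2 (1.18 ± 0.09, adjusted p = 2.9e-07). In a second Cenpu probe set FpB6D2 had a mean of 4.88, beside 4.77 in R1, 4.67 in FpB6CBA, 4.43 in OpB6D2 and 4.06 in NmB6D2. With the mean of all probe sets, FpB6D2 against OpB6D2 (0.815) and FpB6CBA against FpB6D2 (-0.74) were no longer called. Cenpf, a large kinetochore protein that accumulates before mitosis, was among the 4 lower in FpB6D2, with Cenpa, Cenpk and Cenpo: 9.45, 9.41 and 9.60 in NmB6D2, 8.94, 8.87 and 9.01 in OpB6D2, 8.80, 8.73 and 8.45 in FpB6CBA, 8.73, 8.66 and 8.58 in R1, and 8.12, 8.35 and 8.11 in FpB6D2. R1 and FpB6CBA overlapped, and FpB6D2 lay below all other arrays, 2.45-fold under NmB6D2 (-1.29 ± 0.09, adjusted p = 3.5e-08). Cenpa, the histone variant that marks the centromere, had a smaller range, from 10.44, 10.36 and 10.42 in NmB6D2 to 9.73, 9.60 and 9.68 in R1, which lay below all other arrays (1.67-fold, -0.74 ± 0.05, adjusted p = 3.4e-08).

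Cenpi and Kif4 are the members on the X chromosome. Cenpi, one more subunit of the centromere network, read 8.16, 8.19 and 8.08 in OpB6D2 and 8.39, 8.49 and 8.40 in FpB6D2, against 6.81, 6.81 and 6.97 in NmB6D2, 6.93, 7.05 and 7.09 in R1, and 6.68, 6.50 and 6.41 in FpB6CBA. OpB6D2 and FpB6D2 lay above all other arrays and FpB6CBA below all others, while NmB6D2 and R1 overlapped. Cenpi was 2.43-fold higher in OpB6D2 than in NmB6D2 (1.28 ± 0.07, adjusted p = 8.0e-09), 2.96-fold higher in FpB6D2 (1.57 ± 0.07, adjusted p = 5.2e-10), and 3.73-fold lower in FpB6CBA than in FpB6D2 (-1.90 ± 0.07, adjusted p = 8.0e-11). The median of the 414 X-linked genes tested was 0.50 for OpB6D2 against NmB6D2, 0.44 for FpB6D2 against NmB6D2, -0.01 for FpB6CBA against NmB6D2, 0.04 for R1 against NmB6D2 and -0.47 for FpB6CBA against FpB6D2. The median of the 12347 autosomal genes was between -0.04 and 0.02 in the same comparisons.

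Kif4, a kinesin that binds chromosome arms and the central spindle, read 8.49, 8.57 and 8.53 in FpB6D2, 8.26, 8.34 and 8.31 in OpB6D2, 8.19, 8.13 and 7.90 in FpB6CBA, 7.94, 7.89 and 7.99 in NmB6D2, and 7.54, 7.45 and 7.50 in R1. FpB6CBA overlapped NmB6D2 and no other lines overlapped. The range was 2.05-fold (adjusted p = 5.2e-08), and FpB6D2 was 1.5-fold above NmB6D2 (0.59 ± 0.07, adjusted p = 4.4e-06). It was the only one of 12 mitotic kinesins tested to be called among the 5 lines, where 32.9% of all tested genes were.

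The median range of the 12 mitotic kinesins was 0.62 log2 units, beside 0.74 for all genes tested. Between R1 and NmB6D2, 9 of the 12 were lower and 0 higher at an adjusted p under 0.05, where 31.9% and 31.0% of all tested genes were, with a median of -0.35 (all genes -0.04). The count of 0 depends on how roles were assigned. Kif2a, of the same family as the mitotic kinesin Kif2c, was placed with the other kinesins. Its mean was 8.27 in R1 and 7.56 in NmB6D2, higher at an adjusted p under 0.05 by limma. Against OpB6D2, the median of the 12 in R1 was -0.06, beside -0.02 for all genes tested. Kif23, the motor of the central spindle that cytokinesis needs, read 9.79, 9.79 and 9.76 in NmB6D2, 9.57, 9.76 and 9.46 in FpB6CBA, 9.28, 9.28 and 9.22 in FpB6D2, a mean of 9.03 (SD 0.03) in OpB6D2, and 8.79, 8.75 and 8.82 in R1. NmB6D2 overlapped FpB6CBA, R1 lay below all other arrays, and its difference from NmB6D2 of -0.99 ± 0.07 (adjusted p = 1.1e-08) missed the 2-fold minimum. At the other end, Kif22, which pushes chromosomes away from the poles, had overlapping values in 8 of the 10 pairs of lines, with means of 10.60 to 10.70 and a range of 0.10 (adjusted p = 0.34).

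Of the condensin subunits, which compact mitotic chromosomes, 4 of 6 were highest in FpB6CBA, as were 24.4% of all tested genes. Ncapg, a subunit of condensin I, read 9.13, 9.11 and 9.13 in FpB6CBA, 8.79, 8.76 and 8.78 in NmB6D2, 8.45, 8.47 and 8.57 in OpB6D2, 8.49, 8.45 and 8.46 in FpB6D2, and 8.17, 7.85 and 8.06 in R1. OpB6D2 and FpB6D2 overlapped and the other lines stood apart, with a range of 2.14-fold (adjusted p = 3.3e-08). In a second Ncapg probe set FpB6CBA and R1 differed by 1.16. Ncapd2, also of condensin I, was highest in FpB6CBA (9.98, 9.96 and 9.78) and lowest in OpB6D2 (mean 8.99, SD 0.05), 1.88-fold apart. Ncaph ran from 9.66 in FpB6CBA to 8.87 in R1 and Ncaph2, of condensin II, from 10.16 in FpB6CBA to 9.38 in R1. Another Ncaph2 probe set ran the opposite way, lowest in FpB6CBA (5.91) and highest in R1 (6.57). The remaining Ncaph2 probe sets had FpB6CBA above R1, by 0.36 and 0.58. Ncapd3 and Ncapg2, the other subunits of condensin II, had ranges of 0.46 and 0.52, the former highest in NmB6D2 (8.56) and the latter in R1 (7.38). Against NmB6D2, 4 of the 6 condensins were higher in FpB6CBA and 1 lower, where 27.4% and 22.9% of all tested genes were, and the median was 0.28.

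**Figure D4:**
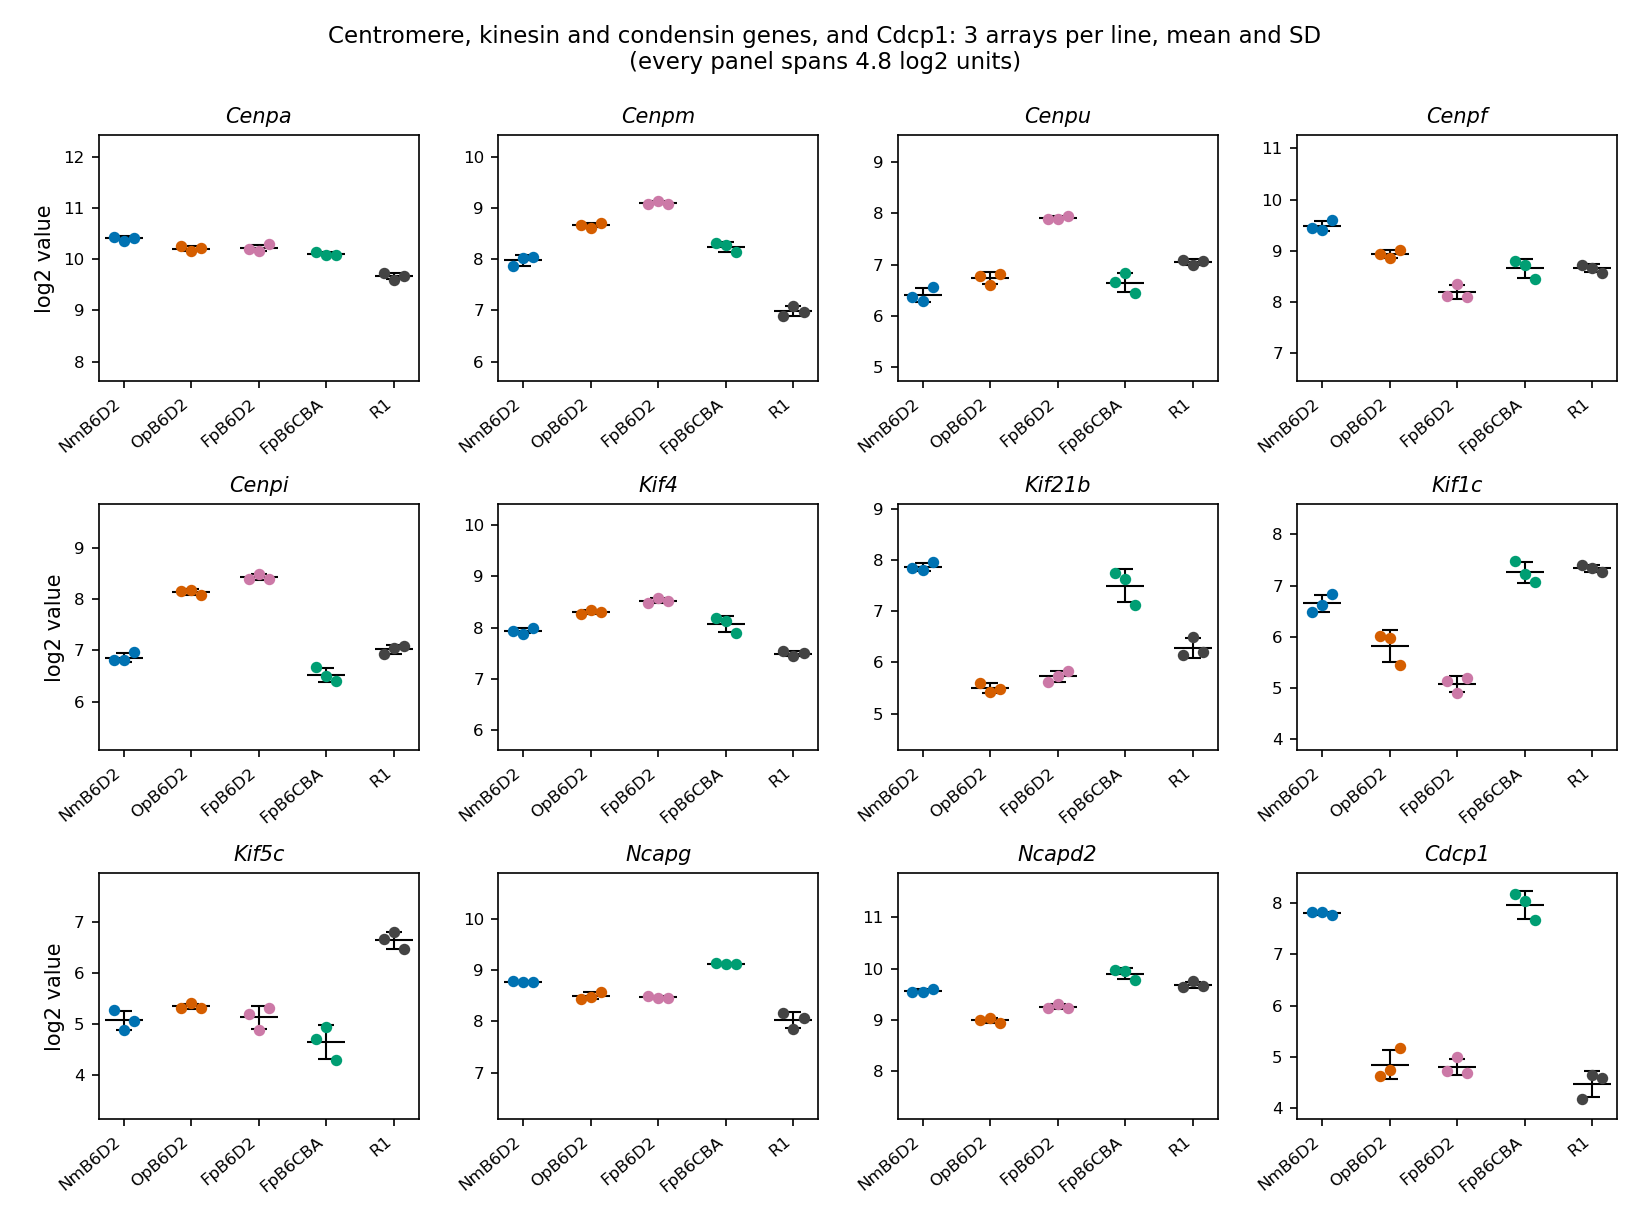
Log2 values (y axis, every panel spanning 4.8 units) of 12 centromere, kinesin, condensin and other genes in the 5 lines (x axis), with a point per array and bars for the mean and SD of 3 arrays. Cenpi is high in OpB6D2 and FpB6D2, Kif21b and Cdcp1 are high in NmB6D2 and FpB6CBA, and Kif5c is high in R1.

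The group of kinesins with transport, ciliary or other roles, which also includes Kifap3 and Kifbp, held 7 of the 25 called members, from 25 tested (background 32.9%). Kif21b, a motor known from neurons and lymphocytes, read 7.85, 7.80 and 7.96 in NmB6D2 and 7.74, 7.63 and 7.12 in FpB6CBA, against 6.14, 6.50 and 6.21 in R1, 5.62, 5.74 and 5.84 in FpB6D2, and 5.60, 5.41 and 5.48 in OpB6D2. NmB6D2 and FpB6CBA did not overlap each other and lay above all other arrays. FpB6D2 and OpB6D2 were separate by a narrow margin. Kif21b was 5.17-fold lower in OpB6D2 than in NmB6D2 (-2.37 ± 0.14, adjusted p = 7.1e-09), 4.39-fold lower in FpB6D2 (-2.13 ± 0.14, adjusted p = 9.7e-09) and 3.00-fold lower in R1 (-1.58 ± 0.14, adjusted p = 1.6e-07).

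Kif1c, a carrier of vesicles, was high in R1 (7.41, 7.34 and 7.27) and FpB6CBA (7.47, 7.22 and 7.08), which overlapped, followed by NmB6D2 (6.49, 6.63 and 6.84), OpB6D2 (6.01, 5.98 and 5.46) and FpB6D2 (5.14, 4.90 and 5.19). The range of 4.8-fold (adjusted p = 9.2e-09) became 0.79 log2 units with the mean of its 4 probe sets, of which the others lay near the filter value. Kif16b, an endosomal motor, was lowest in FpB6D2 at 4.75, 4.86 and 4.75 and highest in FpB6CBA at 6.52, 6.60 and 6.45, 3.33-fold apart (1.74 ± 0.08, adjusted p = 2.6e-10). Its difference of FpB6D2 from NmB6D2, -1.30 ± 0.08, became -0.88 with the mean of all probe sets. Kif1b, another vesicle carrier, was 3.08-fold lower in FpB6D2 (5.94, 6.29 and 5.97) than in NmB6D2 (7.58, 7.71 and 7.78), but 3 of its other 6 probe sets ran the opposite way, by -0.11, -0.51 and -1.42, and the mean of all had a range of 0.50.

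Kif5c, a kinesin-1 heavy chain best known from neurons, was highest in R1 at 6.66, 6.79 and 6.46, above 5.32, 5.41 and 5.30 in OpB6D2, 5.20, 4.88 and 5.31 in FpB6D2, 5.27, 4.89 and 5.07 in NmB6D2, and 4.71, 4.94 and 4.29 in FpB6CBA. R1 lay above all other arrays, 2.95-fold above NmB6D2 (1.56 ± 0.15, adjusted p = 6.8e-07), and the other lines overlapped in part. Kif5b, the widely expressed heavy chain, was also highest in R1 (9.97, 9.80 and 9.78) and lowest in OpB6D2 (8.92, 9.07 and 8.87), 1.86-fold apart. Other Kif5b probe sets were lowest in FpB6CBA, with means of 8.11, 6.87 and 6.43 beside 8.80, 7.25 and 8.47 in OpB6D2. In the last of these FpB6D2 (8.89) also read above R1 (8.85). A further probe set was again lowest in OpB6D2 (6.07), so the probe sets disagree on the lowest line. Neural markers (6 genes) had list means of 5.28 to 5.32 in R1 and 4.81 to 4.85 in NmB6D2, with Sox1, Pax6 and Map2 below the filter value in both. The list means were 5.28 to 5.40 in OpB6D2, 5.32 to 5.52 in FpB6D2 and 4.83 to 4.93 in FpB6CBA. The part of these markers was not tested. Kif21a, at 3.78, 3.61 and 3.51 in FpB6D2, was there below the filter value, so its level in FpB6CBA (4.97, 4.79 and 4.74) was at least 1.96-fold higher, computed against that value, and it is among the called members by its fitted value alone. Kif26a, a kinesin without motor activity, was 2.06-fold higher in FpB6CBA (6.30, 6.42 and 5.70) than in FpB6D2 (5.07, 5.06 and 5.17), but the range fell under the minimum without FpB6CBA replicate 1 (0.90) or the unnumbered FpB6CBA array (0.96).

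Of the 25 tested genes in this group, 0 were higher and 11 lower in FpB6D2 than in NmB6D2 at an adjusted p under 0.05. Of all tested genes, 31.3% were higher and 29.0% lower. By fitted values 5 genes of the group were at least 2-fold lower (background 5.53%). In FpB6CBA against FpB6D2, 10 were higher and 2 lower, where 31.0% and 29.3% of all tested genes were, and by fitted values 5 were at least 2-fold higher (background 6.03%). Both counts of 5 include Kif21a, whose bounds are at least 1.85-fold against NmB6D2 and at least 1.96-fold against FpB6CBA. Both comparisons use FpB6D2, so these counts are not independent.

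Cdcp1, a transmembrane glycoprotein with no known part in mitosis, had the largest range of the 101 members tested. It read 7.82, 7.82 and 7.77 in NmB6D2 and 8.18, 8.04 and 7.67 in FpB6CBA, against 4.62, 4.74 and 5.17 in OpB6D2, 4.73, 4.99 and 4.69 in FpB6D2, and 4.18, 4.64 and 4.59 in R1. NmB6D2 and FpB6CBA overlapped and lay above the other 3 lines. OpB6D2 overlapped FpB6D2 and R1, which did not overlap each other. The fold was 7.78 between NmB6D2 and OpB6D2 (-2.96 ± 0.16, adjusted p = 4.0e-09), 8.01 between NmB6D2 and FpB6D2 (-3.00 ± 0.16, adjusted p = 1.6e-09) and 10.1 between NmB6D2 and R1 (-3.33 ± 0.16, adjusted p = 4.4e-10). The trophectoderm list mean was also higher in NmB6D2 and FpB6CBA than in the other 3 lines, where R1 reached 7.16 to 7.36, and its part was not tested. Cenpj, which builds centrioles in spite of its name, was highest in R1 at 6.44, 6.35 and 6.47 and lowest in FpB6CBA at 5.56, 5.54 and 5.00, 2.08-fold apart (adjusted p = 1.3e-05), and its range was 0.88 without FpB6CBA replicate 3. Cdc5l, a splicing factor, had means of 11.41 in OpB6D2, 11.30 in FpB6D2 and 10.86 to 10.99 in the other lines.

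Cdca2, which brings protein phosphatase 1 to chromosomes at anaphase, read 9.27, 9.24 and 9.14 in FpB6D2, 9.02, 8.99 and 9.09 in NmB6D2, 9.13, 8.96 and 8.92 in FpB6CBA, 8.25, 8.30 and 8.21 in OpB6D2, and 8.26, 8.06 and 8.23 in R1. OpB6D2 and R1 overlapped and lay below the other lines by more than the spread within lines, and the range was 2.04-fold (adjusted p = 7.6e-09). It was 0.97 without R1 replicate 4 and 0.64 with the mean of all probe sets. Cdca5, the cohesin protector sororin, was lowest in R1 at 9.82, 9.79 and 9.80 and 10.06 to 10.82 on the 12 other arrays, 1.70-fold below NmB6D2 (-0.76 ± 0.05, adjusted p = 8.0e-09). Cdc6, which loads the helicase at replication origins, was lower in both follicle lines, with 8.70, 8.64 and 8.74 in FpB6D2 and 8.54, 8.62 and 8.67 in FpB6CBA against 8.99 to 9.16 on the other 9 arrays. None of the 3 replication origin genes (0 of 3) reached 2-fold or was called among the lines, where 32.9% of all tested genes were called.

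Set side by side, the comparisons with NmB6D2 gave few members past 2-fold, and all 4 share the NmB6D2 arrays. In OpB6D2, 1 member was higher (Cenpi, background 3.24%) and 3 were lower (Cdc14b, Cdcp1 and Kif21b, background 2.6%). In FpB6D2, 4 were higher (Aurkc, Cenpi, Cenpm and Cenpu, background 5.22%) and 8 lower (Cdc14b, Cdcp1, Cenpf, Kif16b, Kif1b, Kif1c, Kif21a and Kif21b, background 5.53%), with Kif21a counted by its fitted value and bounded only at 1.85-fold or more. In FpB6CBA, 1 was higher (Aurkc, background 2.57%) and 0 were lower by limma (background 1.63%), the lowest difference of any member being -0.83 in Cenpf, short of 2-fold at any p. In R1, 1 was higher (Kif5c, background 7.39%) and 6 were lower (Bub1, Cdc25a, Cdc25b, Cdcp1, Kif21b and Plk3, background 5.49%).

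Without a minimum size, R1 had the most members below NmB6D2, with 21 higher and 51 lower, where 31.0% and 31.9% of all tested genes were, and a median of -0.17 (all genes tested -0.04). OpB6D2 had 23 higher and 42 lower with a median of -0.09 (all genes 0.00), where 27.0% and 22.7% of all tested genes were higher and lower. FpB6D2 had 32 higher and 35 lower (background 31.3% and 29.0%) with a median of -0.02 (all genes 0.02), and FpB6CBA 21 higher and 33 lower (background 27.4% and 22.9%) with a median of -0.03 (all genes 0.02). Medians of the members thus lay within 0.10 of those of all genes, except in R1.

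FpB6D2 and OpB6D2 share the B6D2F1 background and parthenogenetic origin and differ in how the oocyte was grown. At least 2-fold, 2 members were higher in FpB6D2 (Aurkc and Cenpu, background 1.31%) and 1 lower (Kif1b, background 2.44%). With the mean of all probe sets this total of 3 became 1, while that of all genes went from 480 of 12813 to 299 of 12056. Without a minimum size, 37 were higher and 26 lower, against 26.2% and 25.8% of all tested genes, with a median of 0.03 (all genes 0.02). FpB6CBA and FpB6D2, both from cultured follicles but of different hybrid strains, differed at least 2-fold in 6 members higher in FpB6CBA (Cdcp1, Kif16b, Kif1c, Kif21a by its fitted value, Kif21b and Kif26a, background 6.03%) and 2 lower (Cenpi and Cenpu, background 5.14%). Without a minimum size, 27 were higher and 37 lower in FpB6CBA, against 31.0% and 29.3% of all tested genes, with a median of -0.07 (all genes 0.00).

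**Figure D5:**
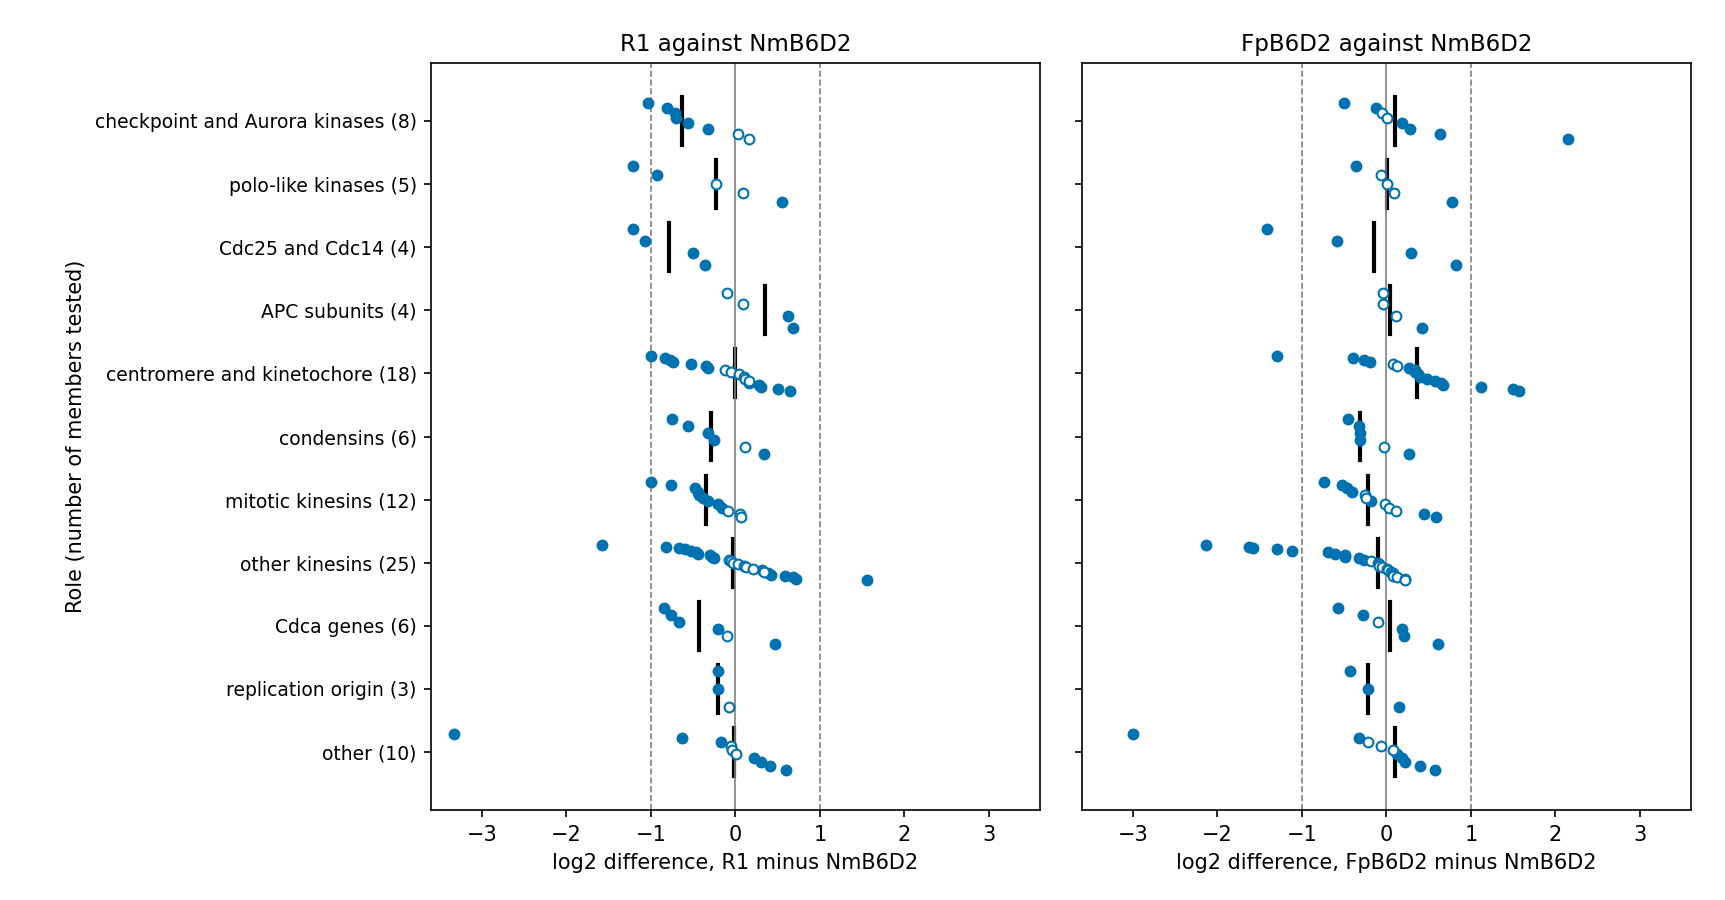
Log2 difference (x axis) of each tested member from NmB6D2 in R1 (left) and FpB6D2 (right), by role (y axis, number tested in brackets). Filled points have an adjusted p under 0.05, black bars are medians of the role and dashed lines mark 2-fold. Checkpoint and Cdc25 genes lie to the left in R1 (medians -0.64 and -0.78), and centromere genes lie to the right in FpB6D2 (median 0.36).

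The 3 parthenogenetic lines were set against the 2 fertilised lines on the 5 line means, so that each line counted once. By limma, 0 of the 101 members were called at an adjusted p under 0.05 and at least 2-fold, and 0 of 12813 genes (0.0%). At an unadjusted p under 0.05 there were 2 members (1.98%), Aurkc and Cenpm, and 601 genes in all (4.69%). The median difference was 0.01 for the members and 0.03 for all genes. Both had all 3 parthenogenetic means above both fertilised means, by 1.55 ± 0.49 in Aurkc and 1.19 ± 0.40 in Cenpm, and neither passed the adjustment (adjusted p = 0.92 for each).

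Genes of the same machinery that the prefixes leave out were counted in the same way. Of 38 other kinetochore and spindle genes tested, 8 were called among the 5 lines, against the background of 32.9%. Between R1 and NmB6D2, 6 were higher and 24 lower without a minimum size, where 31.0% and 31.9% of all tested genes were, with a median of -0.30. Other lines were also below NmB6D2: 3 higher and 19 lower in OpB6D2 (27.0% and 22.7% of all tested genes), and 4 and 19 in FpB6CBA (27.4% and 22.9%). In FpB6D2 11 were higher and 15 lower (31.3% and 29.0%). NmB6D2 was the highest line for 17 of the 38, against 14.7% of all tested genes. The median of R1 was -0.10 against OpB6D2 (all genes -0.02) and -0.06 against FpB6CBA (all genes -0.06). Knl1, the kinetochore scaffold that Bub1 binds, was 6.76, 6.88 and 7.03 in NmB6D2 and 5.73, 5.83 and 5.78 in R1 (log2 difference -1.11). Mis12, of the complex that anchors it, went the other way, at 6.61, 6.54 and 6.52 in NmB6D2 and 7.46, 7.49 and 7.49 in R1 (0.92). Ect2, an activator of cytokinesis, was lowest in FpB6CBA (mean 8.07) and highest in NmB6D2 (9.35), and Ckap2, a spindle protein, lowest in FpB6CBA (8.46) and highest in FpB6D2 (9.68).

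Among 17 genes of mitotic entry, 3 were called, below the background of 32.9%. Mki67, the proliferation marker that coats mitotic chromosomes, was lowest in FpB6D2 at 8.56, 8.55 and 8.53, and had means of 10.20 in NmB6D2, 9.81 in R1, 9.69 in OpB6D2 and 9.64 in FpB6CBA. Lin37 and Foxm1, which act at CHR promoters, were both highest in FpB6D2 (8.64 and 7.33) and lowest in FpB6CBA (7.08 and 6.10). R1 was above NmB6D2 in both, by 0.70 in Lin37 and 0.24 in Foxm1. Of 12 cohesin and other condensin genes, 4 were called, near that background: Smc4, a core condensin subunit, had means of 11.21 in NmB6D2 and 10.07 in R1, whereas its partner Smc2 had 9.92 and 10.49. Nipbl, the cohesin loader, was lowest in FpB6D2 (7.22), and Stag2, a cohesin subunit, was highest in R1 (8.78).

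Of 22 replication genes, 2 were called (background 32.9%), the cyclins Ccne1 (10.26 in NmB6D2 and 9.15 in R1) and Ccne2 (lowest in FpB6CBA, 4.74, and highest in R1, 6.22). Of 10 inhibitors of cyclin-dependent kinases, 3 were called, near the background. Cdkn1c, an imprinted gene expressed from the maternal allele, had means of 7.82 in FpB6CBA, 7.21 in NmB6D2, 6.01 in R1, 5.72 in FpB6D2 and 5.46 in OpB6D2. Cdkn1b was highest in NmB6D2 (7.86) and lowest in FpB6D2 (5.92), and Cdkn2a was highest in OpB6D2 (6.26) and lowest in FpB6CBA (4.38).

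The 10 members that did not pass the filter were Cdc14a, Cdc20b, Cdcp3, Kif12, Kif14, Kif27, Kif28, Kif2b, Kif6 and Kifc5b. Kifc5b reached the filter value on 2 arrays and the others on 0. Among the members that passed, Kif9 (4 arrays) and Kif15 (5 arrays) lay just inside. Of the 111 members, 39 had 1 probe set and 72 had up to 7. Among the 25 called members, 14 had another probe set past the filter, 24 such probe sets in all. In 20 of them the highest and lowest lines differed in the same direction, in 8 of these at least 2-fold, and in 4 in the opposite direction. Probe sets of the kind whose name ends in _x_at, which can bind transcripts of other genes, represented 5 of the 111 members, Cdc20, Cdc25c, Kif22 and Ncaph among them.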

How the data were processed

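Per the labels' protocols, total RNA was labelled with biotin and hybridised to 15 Affymetrix arrays. The deposited table gives a log2 value for each probe set and array. Per the submitters' processing notes the authors used RMA and affy, with versions and settings not given in the sources used here, and the log base was taken from the values (1.99 to 13.96). RMA, as it is commonly run, summarises probes after quantile normalisation, which brings arrays to 1 distribution, so a shift of all genes would not show. Scanner files and detection calls were not used here, and the number of arrays limits the precision.

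Of 45101 probe sets, 34945 carried 1 symbol, 932 several, 9160 none and 64 were controls. Members and lists were chosen with earlier results of these data known. Of the genes, 12813 passed the filter. Lines were compared in 1 limma fit (limma 3.58.1, R 4.3.3) with a mean per line, eBayes moderation and Benjamini-Hochberg adjustment over all genes tested, and called at an adjusted p under 0.05 and at least 2-fold. Mode of origin was tested on the 5 line means. SE is that of the fit. Genes were named by a rule: members called among the lines, the highest and the most variable member of each role, all Bub, Aurk, Plk and Ncap genes, X-linked members, the extremes of each comparison, and up to 4 called genes per outside list. Members near the filter could be named too. Kif23 and Cdca8 were added after their values were seen. The fit was tested on simulated data. Other filters, probe set rules, normalisations, variance models, thresholds, left-out arrays and lines, and a block on the number in the array titles were tried as alternatives. Numbers were shared by arrays of different lines, but the 12 same-numbered pairs had deviations correlated at -0.181 to 0.127 (median 0.018, other pairs 0.004), so they were not treated as pairs. Plots were drawn with matplotlib 3.10.9.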

Additional observations from a re-analysis of the deposited data

How the results depend on the processing

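No called difference between 2 lines in a named member changed sign under the alternatives run. Ranges among the 5 lines cannot be negative, so a change of the highest or lowest line would not show in them. Counts and medians were compared by size alone. Of 25 members called among the 5 lines, leaving out 1 array gave 24 to 28, leaving out line FpB6D2 gave 16 and leaving out line R1 gave 13, with fewer lines to differ. Over all genes, 4211 of 12813 were called in the main fit and 4151 to 4237 with 1 array left out. Without line FpB6D2 it was 3464 of 12639 genes, and without line R1 2667 of 12609. With a 1.5-fold minimum the counts were 64 among the lines, 13 for OpB6D2, 23 for FpB6D2, 8 for FpB6CBA and 31 for R1 against NmB6D2, 15 for FpB6D2 against OpB6D2 and 23 for FpB6CBA against FpB6D2. With no minimum they were 95, 65, 67, 54, 72, 63 and 64 in that order. Of all 12813 genes, 7998, 2201, 3429, 1930, 3703, 1903 and 3499 passed with the 1.5-fold minimum, in the same order. With no minimum, 11143, 6370, 7729, 6444, 8058, 6663 and 7725 of all genes did. Leaving out an array gave 7 to 10 members for FpB6CBA against FpB6D2 (main value 8) and 7 to 8 for R1 against NmB6D2 (main value 7). Over all genes these were 1409 to 1462 (main value 1430) and 1581 to 1662 (main value 1651). The mean of all probe sets gave 1 for FpB6D2 against OpB6D2 (main value 3), and 299 of 12056 genes in all (main value 480 of 12813). The fit with a replicate block on the 13 numbered arrays called 26 members among the lines, beside 24 on the same arrays without the block, a fit added after seeing the data. Of 12732 genes, 4372 were called with the block and 4248 without it. In the block fit Kif4 (range 0.95), Cdca2 (0.96) and Kif26a (0.92) fell under the minimum and Aurkb (1.02) passed it; the numbers do not mark pairs, and the block moved no count by over 1.5 times. Of single-gene values under the alternatives, 2550 kept their side of the threshold, 59 lost and 37 gained a call. With 3 arrays per line, and 5 lines for mode of origin, small differences between lines and effects of origin within strain cannot be resolved.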

Other observations

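Members with and without TTTGAA in a promoter window were set side by side as a description, with no test. Of the 33 tested members with the motif, 20 were lower and 4 higher in R1 than in NmB6D2 at an adjusted p under 0.05 by limma (31.9% and 31.0% of all tested genes), with a median log2 difference of -0.21. Of the 57 tested members with a window but without the motif, 23 were lower and 16 higher, with a median of -0.05. In OpB6D2 against NmB6D2, 18 with the motif were lower and 5 higher, and 18 and 16 without it (22.7% and 27.0% of all tested genes). In FpB6CBA these were 14 and 5 with it and 17 and 16 without it (22.9% and 27.4%). In FpB6D2 they were 12 and 12 with it and 21 and 17 without it (29.0% and 31.3%). All of these comparisons share the NmB6D2 arrays. Between FpB6D2 and OpB6D2, 16 members with the motif were higher and 5 lower (median 0.15), where 26.2% and 25.8% of all tested genes were, and of those without it 16 were higher and 19 lower (median -0.02). At least 2-fold among the 5 lines, 4 of the 33 and 18 of the 57 were called, against 32.9% of all tested genes, and 22 of the called members had a window. Members with the motif had a median range of 0.71, and those without it 0.75.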
